A study of Caenorhabditis elegans with 2 samples.

Results

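Isolated 3' ends are protein-coding genes of Caenorhabditis elegans whose annotated 3' end is followed by at least 1500 bp free of any other protein-coding gene on either strand. The gene models of Ensembl release 115 on WBcel235, the sequence of ce11, gave 4898 such ends among 19973 protein-coding 3' ends, and the remaining 15075 had a closer neighbour. Each region ran from 1 to 1000 bp past the end, where base 0 is the last annotated base of the gene. The regions of 264 ends overlapped the region of another isolated end, and together the regions covered 4861396 bp, or 4.85% of the nuclear genome. The isolated genes had a median length of 2054 bp and a median free gap of 3341 bp.

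Occupancy came from chromatin immunoprecipitation with sequencing (ChIP-seq) with an antibody to ama-1, whose product is the largest of the polymerase II subunits. The material was whole early embryos of the wild-type strain N2, males and females pooled, with no treatment named in the labels, and age is given as unknown. The only group has 2 biological replicates from separate biosamples, so no second condition was compared, and whole embryos mix all their cell types. Both replicates name the same control experiment, which was not analysed here. Fewer bound cells and less polymerase per cell cannot be told apart in such material.

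RNA polymerase II does not stop at the end of the message. It transcribes past the polyadenylation signal, the nascent RNA is cut behind it, and an exonuclease degrades the uncapped RNA that is still attached until the polymerase leaves the template. Polymerase that slows after the signal therefore appears in ChIP-seq as occupancy past the annotated end. Worm genes lie close together and many form operons, so occupancy past one gene is often also occupancy of the next, which isolated ends avoid for protein-coding neighbours.

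The first sequences lie under the highest summits, called on both replicates together, that had no annotated noncoding gene within 200 bp. They are shown because the signal there was highest past a gene with no other gene but piRNA genes annotated nearby. Sequences here come from the RefSeq assembly of WBcel235 and are written on the sense strand of the named gene, 121 bases centred on the summit, with the summit base in capitals. They lie at chrX:5827864-5827984 (plus strand, 109 to 229 bp past hbl-1), chrX:8160214-8160334 (plus, 130 to 250 bp past hil-3), chrIII:9775162-9775282 (plus, 337 to 457 bp past cbp-1) and chrII:9258181-9258301 (minus, 747 to 867 bp past aqp-2). In replicates 1 and 2 alone the hil-3 summit lay at 127 and 120 bp, outside the printed stretch. The cbp-1 summit lay at 586 bp in replicate 1, also outside, and at 367 bp in replicate 2. Those of hbl-1 and aqp-2 lay inside the printed stretches in both replicates.
hbl-1: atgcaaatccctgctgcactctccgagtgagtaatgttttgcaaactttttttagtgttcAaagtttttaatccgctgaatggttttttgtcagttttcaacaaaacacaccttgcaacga
hil-3: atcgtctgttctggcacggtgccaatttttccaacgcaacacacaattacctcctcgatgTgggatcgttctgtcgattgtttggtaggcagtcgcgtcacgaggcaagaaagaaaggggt
cbp-1: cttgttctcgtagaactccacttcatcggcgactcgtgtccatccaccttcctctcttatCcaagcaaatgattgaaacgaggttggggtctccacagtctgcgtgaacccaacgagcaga
aqp-2: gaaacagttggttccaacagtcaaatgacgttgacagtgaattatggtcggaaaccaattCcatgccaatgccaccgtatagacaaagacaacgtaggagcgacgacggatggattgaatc

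The next set shows high summits beside a microRNA gene, because 3 of the 4 highest peaks past isolated ends lay near such genes. The annotated microRNA gene is in capitals, with at least 10 bases on either side reaching past the summit. They lie at chrIV:11026003-11026251 (plus, past alh-3, cel-mir-51 in capitals), chrII:11880934-11881096 (plus, past top-2, cel-mir-45 in capitals) and chrIV:11027583-11027701 (minus, past hrg-5, cel-mir-53 in capitals). The microRNA genes at alh-3 and top-2 are encoded on the opposite strand, so the capitals there read as their reverse complement, and cel-mir-53 lies on the strand of hrg-5.
alh-3: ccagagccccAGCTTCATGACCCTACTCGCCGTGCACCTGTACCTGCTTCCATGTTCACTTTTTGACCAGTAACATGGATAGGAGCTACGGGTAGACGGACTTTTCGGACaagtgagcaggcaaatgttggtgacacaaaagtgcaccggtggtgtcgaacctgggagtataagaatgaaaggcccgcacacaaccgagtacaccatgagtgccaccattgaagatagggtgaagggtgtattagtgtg
top-2: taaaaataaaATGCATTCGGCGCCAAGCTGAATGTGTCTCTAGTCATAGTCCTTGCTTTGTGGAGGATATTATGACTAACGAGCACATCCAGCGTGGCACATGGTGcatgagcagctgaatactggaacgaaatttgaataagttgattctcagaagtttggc
hrg-5: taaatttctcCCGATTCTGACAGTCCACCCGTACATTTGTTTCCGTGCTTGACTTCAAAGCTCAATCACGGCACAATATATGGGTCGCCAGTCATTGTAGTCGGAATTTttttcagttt

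AMA-1 summits past isolated ends gathered between 100 and 500 bp from the end. The optimal list, which holds the peaks kept by the authors' reproducibility procedure, placed 54 summits (7.46% of the list, exact binomial 95% interval 5.65 to 9.62) in the regions of 51 ends. Of the 54, 43 lay 100 to 500 bp past the end (79.6%, 66.5 to 89.4). The distances ran from 64 to 869 bp with a median of 305.5 bp, and the middle part of the distribution spanned 200.2 to 410.8 bp (quartiles). Intervals here cover counting error over peaks only, since read depth is unknown and peaks of a list are not replicates.

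Distances are grouped in bins of 100 bp, each of which includes its far edge. By bin, 2 optimal summits lay in the first 100 bp past the end, 12 at 100 to 200 bp, 12 at 200 to 300 bp, 13 at 300 to 400 bp and 6 at 400 to 500 bp. Beyond 500 bp no bin held more than 3, and the last bin, 900 to 1000 bp, held 0. Per covered length the regions held 11.1 optimal summits per Mb, against 7.22 per Mb over the nuclear chromosomes, and the stretch from 100 to 500 bp held 21.9 per Mb. These densities are descriptions without a test.

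Each replicate alone gave a like placement. For this, each replicate's list was taken down to as many peaks as the optimal list holds. Among these highest peaks of replicate 1, 50 summits lay past 50 isolated ends, 37 of them at 100 to 500 bp (74%, 59.7 to 85.4), with a median distance of 310 bp. Replicate 2's highest peaks gave 54 summits past 50 ends, 41 of them at 100 to 500 bp (75.9%, 62.4 to 86.5), with a median of 299.5 bp. In both replicates the bin from 100 to 200 bp held most summits. Replicate 1 had 12 there and 11 at 300 to 400 bp, and replicate 2 had 15 at 100 to 200 bp and 10 in each of the next 2 bins.

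**Figure D1:**
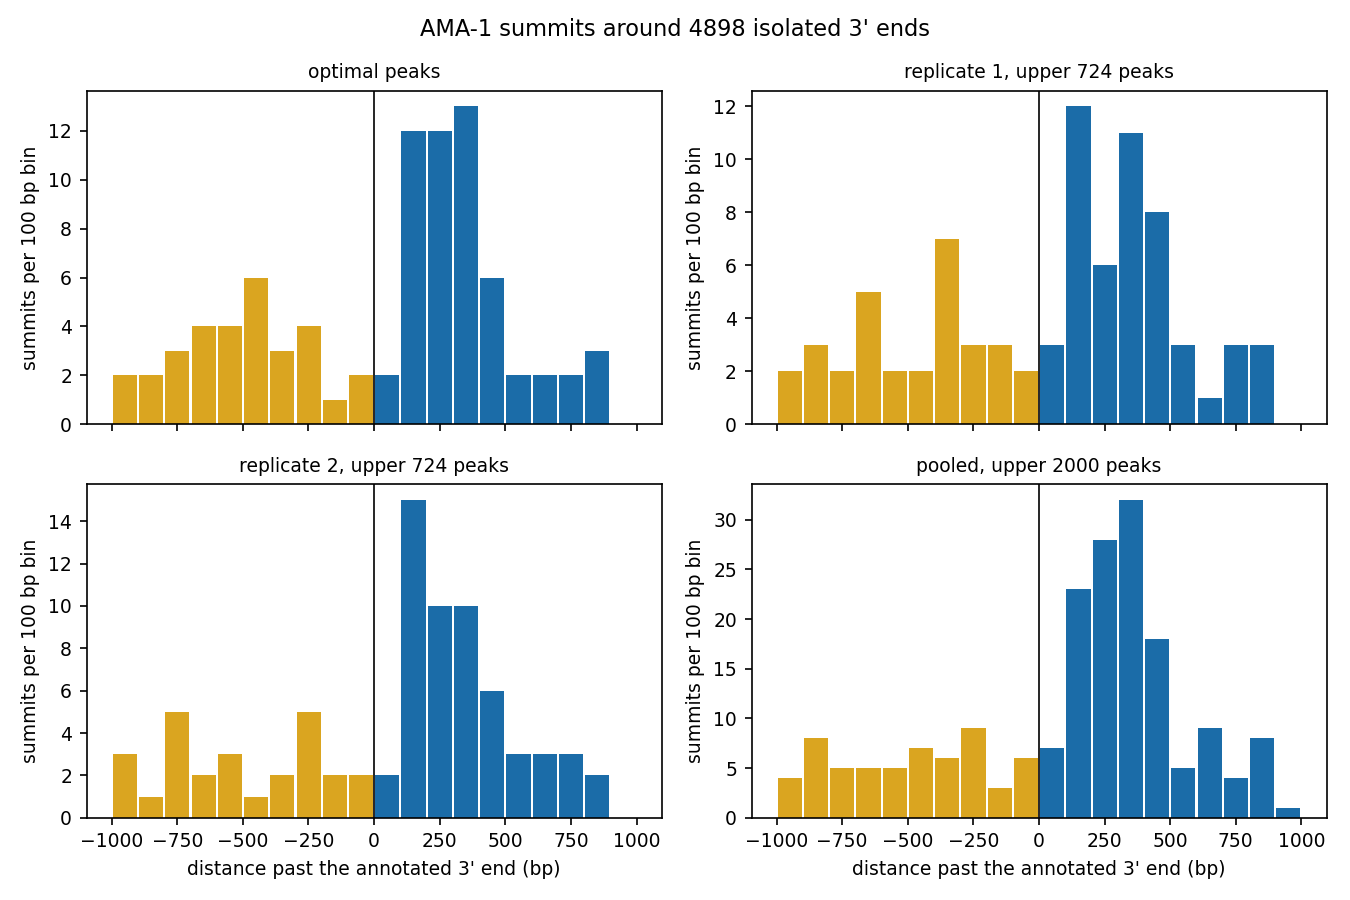
AMA-1 summits in 100 bp bins around 4898 isolated 3' ends (x axis, bp past the annotated end, with negative values inside the gene; y axis, number of summits), for the optimal list, as many of the highest peaks of each replicate, and the upper 2000 pooled peaks. Blue bars lie past the end and yellow bars inside genes that span the whole bin; in the optimal list the bins from 100 to 400 bp hold 12, 12 and 13 summits.

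The deposited signal has no stated scale, so it ranks peaks only within a list. In the 30000 peaks of the pooled list, which include background, 1076 summits lay past 767 isolated ends. The median rank of the 567 summits at 100 to 500 bp was 10527, against 12434 for the 92 in the first 100 bp, 15010 for the 417 at 500 to 1000 bp and 15546 for the 879 inside the isolated genes within 1000 bp of the end. Lower ranks mean higher signal, so of these stretches, which differ in width, the one from 100 to 500 bp had the highest typical signal. Each of its 100 bp bins held 106 to 172 pooled summits, and the other bins past the end held 60 to 98.

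The share of summits ranked in the upper 5000 of the pooled list was 32.6% at 100 to 500 bp (28.8 to 36.7), 18.7% at 500 to 1000 bp (15.1 to 22.8) and 16% inside the gene (13.7 to 18.6). In replicate 1 these shares were 25.2% (21.7 to 28.8), 15.3% (12.1 to 19) and 18.7% (16.2 to 21.4). In replicate 2 they were 28.8% (25.2 to 32.7), 18.1% (14.4 to 22.3) and 16.2% (13.9 to 18.7). The bin from 200 to 300 bp had the highest share in the pooled list, 38.1% of 155 summits (30.4 to 46.2), and the lowest past the end was 10% of 60 summits at 900 to 1000 bp.

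**Figure D2:**
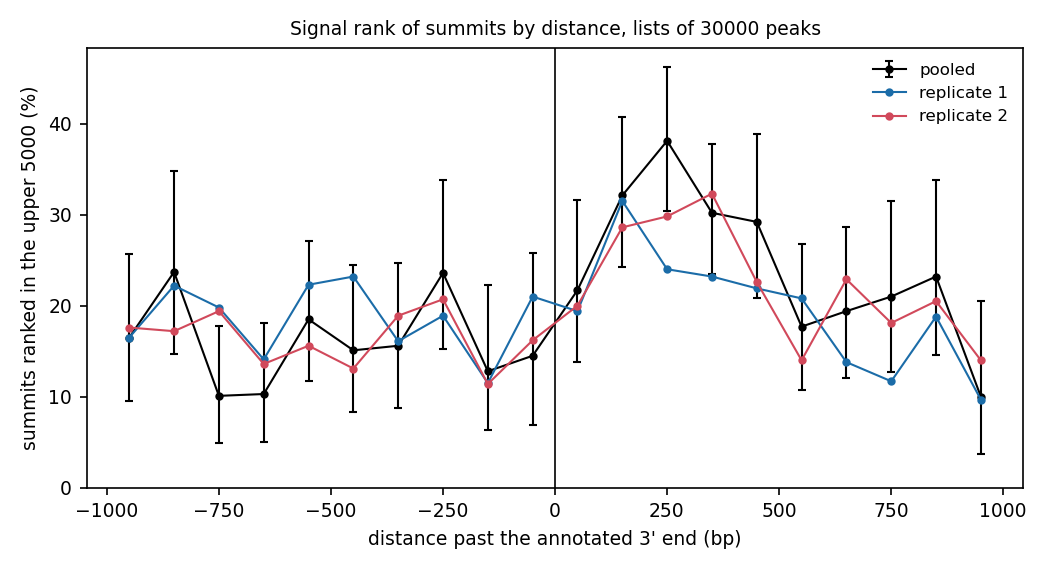
Share of summits that rank in the upper 5000 (y axis, percent) by distance past the annotated 3' end (x axis, 100 bp bins), in the pooled list and each replicate list of 30000 peaks, with exact binomial 95% intervals drawn for the pooled list. Between 100 and 500 bp the pooled share lies between 29.2% and 38.1%.

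In genes of at least 1000 bp the last 1000 bp of the gene held fewer summits than the region past the end. In shorter genes the order depended on the length of the peak list. Among the ends of genes of at least 1000 bp, the optimal list had 48 summits in the 1000 bp past the end and 16 in the 1000 bp before it, a ratio of 3. Replicate 1's upper peaks gave 41 and 22 (ratio 1.86) and replicate 2's gave 48 and 15 (ratio 3.2). Past the end lay 75% of these optimal summits (62.6 to 85), and in replicate 1 the share was 65.1% (52 to 76.7). Over isolated genes of all lengths, a count added after seeing the data, 54 optimal summits lay past the end and 32 inside the gene, a ratio of 1.69, and the replicates gave 1.56 and 2.08. Genes shorter than 1000 bp, whose 5' end lies within that distance, had 6 optimal summits past the end and 16 inside. In replicate 1 they had 9 past and 10 inside, and in replicate 2 they had 6 past and 11 inside. The upper 2000 pooled peaks gave 16 past and 19 inside, the upper 5000 gave 33 and 32, and all 30000 gave 130 and 96. All 30000 peaks of replicate 1 gave 121 past and 99 inside, and those of replicate 2 gave 121 and 93.

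The share of isolated ends with a summit was below that of all ends. An optimal summit lay past 51 of 4898 isolated ends (1.04%, 0.776 to 1.37), against a background of 2.35% of all 19973 protein-coding ends. In the highest peaks of each replicate the share was 1.02% in each replicate, against 2.05% and 2.36% of all ends in replicates 1 and 2. In the upper 2000 pooled peaks, 122 isolated ends had a summit (2.49%, 2.07 to 2.97), against 5.59% of all ends. Ends with a close neighbour had an optimal summit in 2.77% of cases (2.52 to 3.05), and of their 436 pairs of a summit and an end, 325 (74.5%) had the summit inside another protein-coding gene. These shares were not tested against each other, and what part of the difference comes from the neighbours' own summits was not tested.

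On either side of the isolation limit the shares were close. Among the 1563 ends with at least 1000 but under 1500 bp free, which the rule leaves out, 16 had an optimal summit within 1000 bp (1.02%, 0.586 to 1.66), and among the 930 isolated ends with a gap of 1500 to under 2000 bp 11 did (1.18%, 0.592 to 2.11). The share was 1.08% of 1203 ends with 2000 to under 3000 bp free, 1.01% of 1293 with 3000 to under 5000 bp and 0.951% of 1472 with 5000 bp or more. All these intervals overlap.

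The profile past the end had a like shape in both kinds of end. At ends with a close neighbour, 70.9% of 436 pairs lay at 100 to 500 bp (66.4 to 75.1), with a median of 348.5 bp, and the interval overlaps that of isolated ends. Their densest bin was 300 to 400 bp, with 7.1 summits per 1000 ends, against 2.65 at isolated ends. Before the end the difference varied by bin, counting genes that span the whole bin. At 300 to 400 bp inside the gene, ends with a close neighbour had 2.83 summits per 1000 ends and isolated ends 0.642. At 400 to 500 bp inside these were 2.46 and 1.31, and at 900 to 1000 bp inside 0.486 and 0.503. Ends with a close neighbour had a past to before ratio of 2.62 in genes of at least 1000 bp, against 3 at isolated ends. For scale, 5' ends with 1500 bp free upstream, 7589 in number, had 16 optimal summits in the 1000 bp upstream at 14 ends (0.184%, 0.101 to 0.309), 5 of them at 100 to 500 bp.

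**Figure D3:**
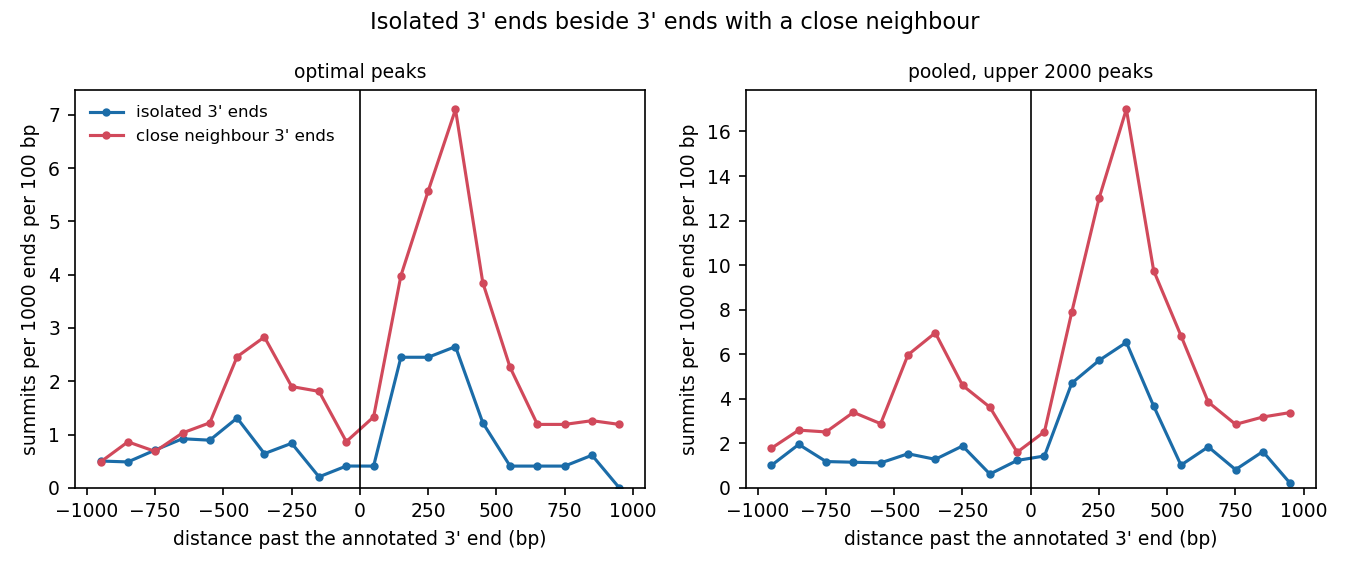
Summits per 1000 ends in 100 bp bins (y axis) by distance past the annotated 3' end (x axis, bp) for isolated ends (blue) and ends with a close neighbour (red), in the optimal list and the upper 2000 pooled peaks. Both curves are highest at 300 to 400 bp, at 2.65 and 7.1 per 1000 ends in the optimal list.

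Many of the highest peaks past isolated ends lay near short noncoding RNA genes. A microRNA, snRNA, snoRNA or tRNA gene lay within 200 bp of 13 of the 54 optimal summits (24.1%, 13.5 to 37.6), while bases within 200 bp of such a gene made up 1.07% of the regions. These 13 included 8 of the 15 highest summits, and in 7 of the 13 the summit fell inside the nearest such gene. The nearest such gene lay on the strand of the protein-coding gene in 6 cases and on the opposite strand in 7. Another 7 summits (13%, 5.37 to 24.9) lay within 200 bp of an unspecified ncRNA gene or a pseudogene only, and 34 (63%, 48.7 to 75.7) had neither. Bases within 200 bp of any noncoding gene or pseudogene except piRNA, short RNA genes included, made up 17.4% of the regions. The 7 are therefore not read as an excess. Whether the message's end or the small gene holds the polymerase at the 13 cannot be told apart in these lists.

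The first of them belonged to ins-13, an insulin-like peptide gene on chromosome II. Its summit lay 819 bp past the end inside sls-2.2 (5543598 to 5543707, opposite strand), which encodes a spliced leader RNA for operon messages. The signal was 449.1, rank 4 in the optimal list, rank 4 in replicate 1 and rank 5 in replicate 2. The next summit past an isolated end ranked 50. In the ins-13 region 87.2% of the 31-mers occur once in the genome, and whether those under the summit do was not examined.

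MicroRNA genes lay beside 4 summits. The alh-3 and hrg-5 genes face each other on chromosome IV across a gap of 2418 bp that holds microRNA genes of the mir-51 group, and each had a summit in it. Past alh-3, an aldehyde dehydrogenase family gene, the summit lay at 371 bp, 129 bp from cel-mir-51 and 22 bp from the ncRNA gene F36H1.17 (signal 127.4, rank 50, and rank 64 in each replicate, at 305 and 384 bp). Past hrg-5, a heme-responsive gene, it lay at 670 bp inside cel-mir-53 (signal 104.5, rank 79, replicate ranks 90 and 136). These are the stretches printed above with the microRNA genes in capitals.

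Past top-2, which encodes topoisomerase II, the summit lay at 498 bp, 47 bp from cel-mir-45 (signal 106.8, rank 75). It ranked 417 in replicate 1 and 66 in replicate 2, at 509 and 494 bp, so the places were close and the ranks differed. Past pqn-42, a gene for a protein rich in glutamine and asparagine, the summit at 207 bp lay 75 bp from cel-mir-72 (signal 79.9, rank 175, replicate ranks 180 and 427).

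snoRNA genes, which guide modification of ribosomal and other RNAs, lay beside 5 summits. They were those past homt-1 on I (303 bp, rank 100), T28B8.1 on I (593 bp, rank 135), C25H3.1 on II (290 bp, rank 209), str-170 on IV (440 bp, rank 359) and C16D9.6 on V (198 bp, rank 377). At homt-1 the free stretch runs to the chromosome end, 4115 bp away, and 59.4% of the region's 31-mers occur once in the genome. At T28B8.1 the snoRNA gene T28B8.11 was 196 bp away, the farthest of the 13. The C16D9.6 peak ranked 5272 in replicate 1 and 172 in replicate 2, and the others ranked from 63 to 932.

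tRNA genes, which RNA polymerase III transcribes, lay within 200 bp of 3 summits. They were past Y65A5A.1 on IV (318 bp, rank 178), C16B8.4 on X (300 bp, rank 196, inside C16B8.t2) and dlg-1 on X (152 bp, rank 471), a scaffold gene of epithelial junctions. Replicate 2 ranked the Y65A5A.1 and C16B8.4 peaks 50 and 117, and replicate 1 ranked them 406 and 1247.

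**Figure D4:**
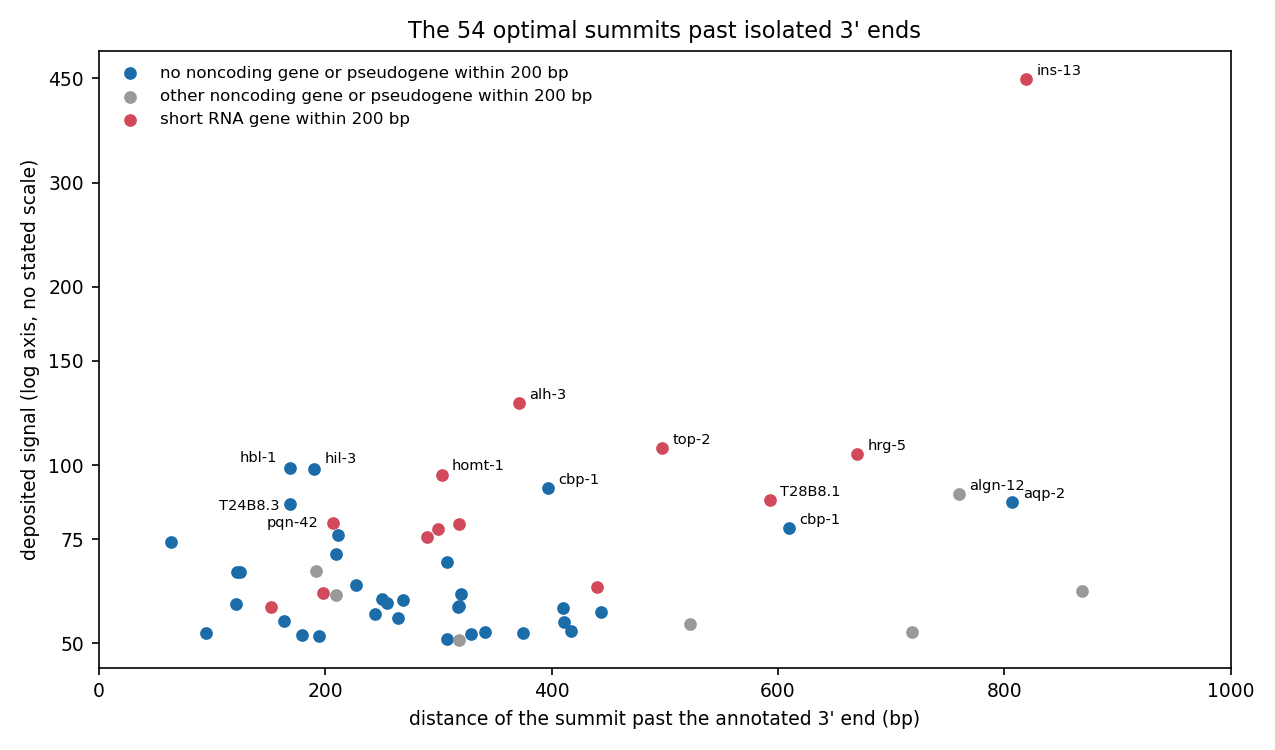
Deposited signal (y axis, log scale with no stated unit) against distance past the annotated 3' end (x axis, bp) for the 54 optimal summits in isolated regions, coloured by whether a short RNA gene (red), another noncoding gene or pseudogene (grey) or neither (blue) lies within 200 bp, with the genes of the highest summits named. The ins-13 summit stands apart at 449.1 and 819 bp, and the blue points gather below 450 bp except at cbp-1 and aqp-2.

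Summits with no annotated noncoding gene or pseudogene nearby lay closer to the end. The 34 such summits had a median distance of 259.5 bp (quartiles 182.5 and 338), and 30 of them lay at 100 to 500 bp (88.2%, 72.5 to 96.7). The exceptions were T28F4.1 at 64 bp and lit-1, a Nemo-like kinase gene, at 95 bp, and, farther out, 1 of the summits of cbp-1 at 610 bp and 1 of aqp-2 at 807 bp. The 13 summits near short RNA genes had a median of 318 bp and the 7 near other noncoding genes or pseudogenes 522 bp. The 34 ranked from 88 to 715 in the optimal list, with a median rank of 448.5.

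The highest of the 34 belonged to hbl-1 on X, which encodes a Hunchback-like zinc finger protein of developmental timing. Its summit lay 169 bp past the end (signal 98.76, rank 88), at 152 bp in replicate 1 and 170 bp in replicate 2. Replicate 1 ranked it 48 and replicate 2 ranked it 1007, with summits at close places. The gene body held 3 further optimal summits, the best at rank 169.

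At 3 ends there were 2 summits each. The acetyltransferase gene cbp-1 on III had summits at 397 bp (signal 91.44, rank 114) and 610 bp (78.2, rank 194), and the next gene, usp-46, lies past 1797 free bp. The highest summit in the cbp-1 region lay at 586 bp in replicate 1 (rank 47) and at 367 bp in replicate 2 (rank 173), nearer to different optimal summits. The aquaporin gene aqp-2 on II had summits at 807 bp (86.71, rank 139) and 308 bp (50.93, rank 715), and algn-12 on V, a gene of protein glycosylation, at 760 bp (89.25, rank 124) and 192 bp (66.22, rank 307). The pseudogene ZC513.7 overlaps the algn-12 region and lies within 50 bp of both summits.

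Among the 16 isolated ends of histone genes, 3 had an optimal summit, and these were at linker histone genes. Histone H1 packs the DNA between nucleosomes. Of 9 linker histone genes 4 had an isolated end, and 3 of these had an optimal summit past it. They were hil-3 on X at 190 bp (signal 98.31, rank 91, replicate ranks 250 and 95), hil-7 on IV at 125 bp (66.1, rank 310, replicate ranks 249 and 1132) and his-24 on X at 318 bp (57.81, rank 461, replicate ranks 1460 and 508). The gene bodies of these 3 held higher summits, at ranks 21, 68 and 15. The end of hil-8 on I had no summit in the pooled list. Over all isolated ends the share with an optimal summit was 1.04%. The split into linker and other histone genes was not among the planned lists, and 4 ends are few.

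Of 72 core and variant histone genes 12 had an isolated end, and 0 of these had an optimal summit past it. The nearest to one was his-58, with a summit at 89 bp that ranked 12161 in the pooled list. Among the 12, the symbol his-52 on V is repeated, with no summit in the pooled list. Several core histone genes share near-identical sequence, so reads at them are uncertain. In replicate 1 alone his-59 on IV had a summit at 90 bp that ranked 531. No test was made on these lists, whose members were picked by gene symbol, and 12 ends are too few to tell a count of 0 from the 1.04% of all isolated ends.

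The other gene lists had 0 isolated ends with an optimal summit. With a share of 1.04% over all isolated ends, lists of 2 to 78 such ends are too small to tell these counts of 0 from that share. Isolated ends numbered 2 of 21 genes for 3' end processing and termination, 8 of 59 chaperone genes and 8 of 78 ribosomal protein genes. They numbered 42 of 170 collagen genes, 78 of 269 nuclear hormone receptor genes and 43 of 111 homeobox and other embryonic regulator genes. In the upper 2000 pooled peaks, sqt-3, a cuticle collagen gene, had a summit at 364 bp (rank 923), rpl-31, a ribosomal protein gene, at 397 bp (rank 1757) and ceh-43, a homeobox gene, at 389 bp (rank 1843).

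Among the 25 highest summits in isolated regions, those not yet described lay mostly close to the end. T24B8.3 on II had one at 169 bp (signal 85.97, rank 146), ham-1 on IV, a gene of asymmetric neuroblast division, at 211 bp (76.22, rank 203) and Y39E4B.6 on III at 210 bp (70.68, rank 256). The E-cadherin gene hmr-1 on I had one at 308 bp (68.53, rank 283), and its replicate ranks were 105 and 507. The C-type lectin gene clec-266 on X had one at 122 bp (65.94, rank 315) and C35E7.5 on I at 227 bp (62.75, rank 357). T28F4.1 on I ranked 220 at 64 bp, with replicate ranks of 3853 and 115, and those of C35E7.5 were 3165 and 118.

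Several ends lower in the list are named here after their values were seen. The translocon gene sec-61.A on IV had a summit at 255 bp (rank 446), the coatomer gene copa-1 on I at 180 bp (rank 677) and asna-1 on III, an ATPase gene of membrane protein insertion, at 320 bp (rank 385). The ribonucleotide reductase gene rnr-1 on III had one at 411 bp (rank 586), and ain-1 on X, which encodes a protein of the microRNA-induced silencing complex, at 341 bp (rank 648). The bromodomain gene bet-1 on I had one at 444 bp (rank 503), the RNA-binding gene sup-26 on III at 269 bp (rank 424) and the helicase gene ddx-17 on V at 317 bp (rank 473). Replicate 1 ranked ain-1 13055, copa-1 3784, rnr-1 3715 and ddx-17 2064, and replicate 2 ranked them 245, 449, 468 and 326. The others named here ranked from 217 to 1394 in the replicates. At ddx-17 71.8% of the region's 31-mers occur once in the genome.

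The highest summits at ends with long free gaps lay at varied distances. The highest summits with over 5000 bp free were those of algn-12 (7328 bp free), C25H3.1 (6255 bp), T28F4.1 (6190 bp) and Y39E4B.6 (13169 bp), at 760, 290, 64 and 210 bp past the end. With 3000 bp free in place of 1500 bp, the median distance was 308 bp over 29 summits, against 305.5 bp over 54. The 29 are part of the 54, so the medians are not independent, and ends with shorter gaps were not set beside them. The next gene lay on the same strand for 3531 isolated ends, of which 36 had a summit (1.02%), and faced the end for 1363, of which 14 did (1.03%).

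Isolated genes with an optimal summit inside them had a higher share of ends with one past the end. Of the 69 isolated genes with an optimal summit inside them, 19 also had one past the end (27.5%, 17.5 to 39.6), against 32 of the 4829 without (0.663%, 0.454 to 0.934). The remaining 32 of the 51 ends thus had a summit past the end and none inside the gene, among them sec-61.A, rnr-1, ham-1 and asna-1. Where both occurred, the summit inside ranked higher in 13 of 19 genes. A summit within 500 bp of the 5' end was present in 52 isolated genes, and 8 of these had one past the 3' end (15.4%, 6.88 to 28.1). All these counts come from the same list and carry no test.

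The share of ends with a summit was highest among the longest genes. The share was 0.651% of 921 genes under 1000 bp (0.239 to 1.41), 0.546% of 1466 genes of 1000 to under 2000 bp (0.236 to 1.07), 1.21% of 1655 genes of 2000 to under 5000 bp (0.74 to 1.86) and 1.99% of 856 genes of 5000 bp or more (1.16 to 3.16). The intervals of the first and last classes overlap, and those of the second and last do not. The 51 genes had a median length of 3302 bp.

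Isolated ends were most frequent on chromosome X, where 969 of 2731 genes (35.5%) had one, against 19.2% on III to 25.7% on IV. On X, 12 of the 969 ends had an optimal summit (1.24%, 0.641 to 2.15), and on the autosomes 39 of 3929 did (0.993%, 0.707 to 1.35). The highest on X were hbl-1, hil-3, C16B8.4 and clec-266. Chromosome V had the lowest share, 4 of 1218 ends (0.328%, 0.0896 to 0.839), and I the highest, 11 of 560 (1.96%, 0.985 to 3.49). Those of II, III and IV were 0.999%, 1.38% and 1.07%.

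In overlapping peaks the replicates' summits lay near each other, and their ranks differed. All 54 optimal summits in isolated regions overlapped a peak in each replicate, which follows in part from how the optimal list was built. Replicate 1 ranked them from 4 to 13055 with a median of 583, and replicate 2 from 5 to 3461 with a median of 441.5. Of the 54, 19 were among the highest peaks of both replicates, as many as the optimal list holds, and 5 were in neither. Of 50 ends with such a peak in each replicate, 23 were shared (46% of each). The summit of the overlapping peak differed between replicates by a median of 45 bp, by at most 50 bp in 29 and at most 100 bp in 40 of the 54, and by 219 bp at most. Only replicate peaks that overlap the optimal peak were counted, so peak width limits this difference in advance.

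Over the upper 5000 peaks, where peaks did not have to overlap, the likeness was weaker. Of 222 isolated ends with a summit in replicate 1 and 229 in replicate 2, 121 were shared (54.5% and 52.8%). Across these 121 ends, the distance of the highest summit had a Pearson's r of 0.392 and a Spearman's rho of 0.397 between replicates. The absolute difference had a median of 80 bp, and 67 of the 121 (55.4%) lay within 100 bp. The ends share their libraries and the control, so these values are descriptions.

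**Figure D5:**
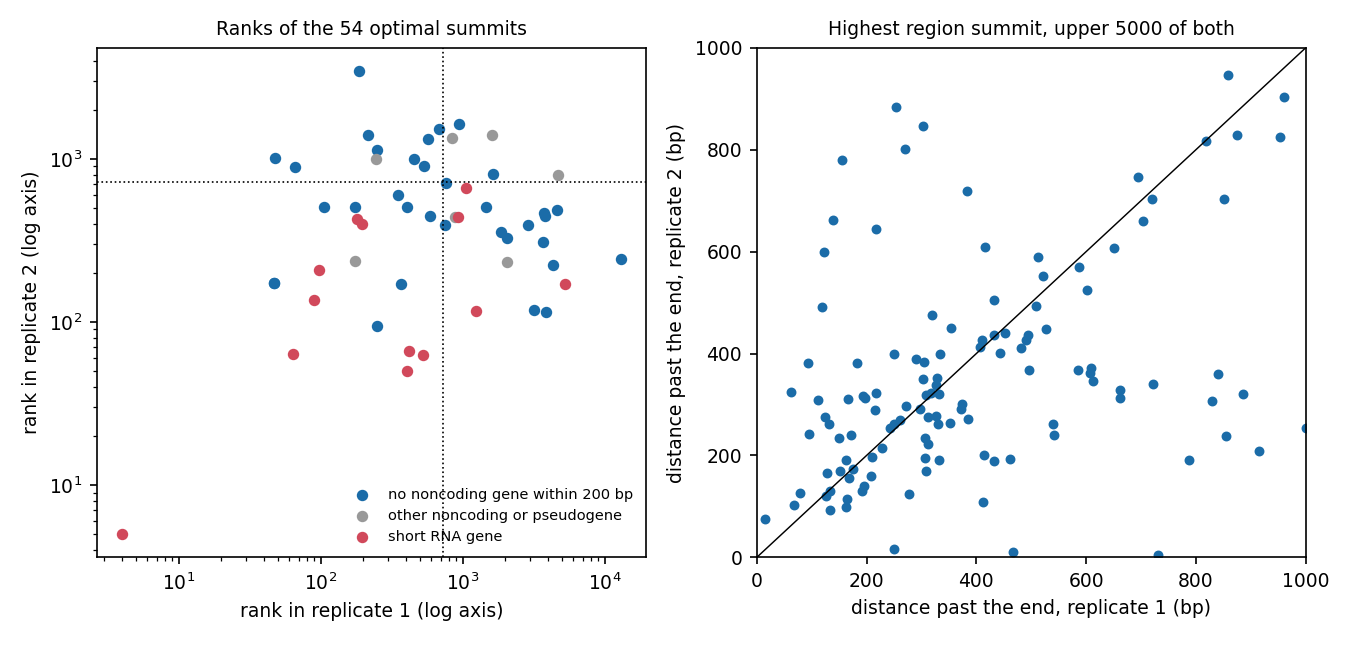
Left, rank in replicate 1 (x axis) and replicate 2 (y axis), both log scaled, of the peaks overlapping the 54 optimal summits, with dotted lines at the number of peaks in the optimal list; right, distance past the annotated 3' end (bp) of the highest region summit in each replicate for the 121 isolated ends with a summit in the upper 5000 of both, with the line of equality. Of the left points 19 lie within both dotted lines.

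Some ends were high in 1 replicate only. Of 50 ends with a summit among replicate 1's highest peaks, 5 had none in the same region among replicate 2's upper 10000, and of 50 in replicate 2, 7 had none among replicate 1's. In replicate 1 these were cnnm-3 on X (rank 258, 272 bp), unc-70 on V (rank 445, 140 bp), dmd-6 on IV (rank 468, 352 bp), rpl-31 on I (rank 496, 430 bp) and his-59 on IV (rank 531, 90 bp). In replicate 2 the highest were ain-1 on X (rank 245, 333 bp), slmp-1 on IV (rank 363, 669 bp), iff-2 on II (rank 373, 191 bp) and flh-3 on IV (rank 486, 64 bp). The gene of the target itself, ama-1, has an isolated end, and its summit ranked 523 in replicate 2 (534 bp) and 14685 in replicate 1 (241 bp). The naming of his-59 and ama-1 here came after their values were seen.

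The share of ends with a polyadenylation signal had overlapping intervals with and without a summit condition. The polyadenylation signal AATAAA, searched on the sense strand in the last 40 bases of the gene, was found in 26 of the 51 ends with an optimal summit (51%, 36.6 to 65.2) and in 2232 of all 4898 isolated ends (45.6%, 44.2 to 47). Among the 32 ends whose summits had no noncoding gene nearby it was 17 (53.1%, 34.7 to 70.9). The signal was in the last 40 bases of hbl-1, hil-3 and aqp-2 and not in those of cbp-1.

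At 100 to 500 bp past the end, mean GC content was higher at ends with a summit than at all isolated ends, by less with distance. At 100 to 200 bp past the end, GC content was 41.1% ± 8.86 (SD over 51 ends) at ends with an optimal summit and 34.2% ± 8.3 (SD over 4898 ends) at all isolated ends. For the 32 ends without a noncoding gene near the summit it was 39.8% ± 7.65 (SD). By 700 to 800 bp the values were 32.8% ± 8.77 over the 51 ends and 34.4% ± 8.15 over all ends. Within 100 bp of the 54 summits, GC content ran from 31.3 to 51.7% with a median of 39.8%. Its part in the placement was not tested. Of the 51 regions, 34 held only 31-mers that occur once in the genome, and at 5 (homt-1, Y39E4B.6, ddx-17, lit-1 and pigk-1) fewer than 80% did, so reads there may come from other copies. The share was 87.2% at ins-13, 86.3% at C16B8.4 and 83.7% at str-170 and dlg-1. It is a mean over 1000 bp, so whether the sequence under a given summit is unique was not examined.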

How the data were processed

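Peak lists of AMA-1 ChIP-seq from 2 replicates of early N2 embryos were used as deposited. Per the deposited text notes, the authors called 30000 peaks, background included, per replicate and 30000 on both replicates pooled, each against the shared control, and thresholded them by the irreproducible discovery rate into the optimal list. When checked, that list of 724 peaks held the 724 pooled peaks of highest signal. Each peak's signal is the authors' value in the deposited lists, on a scale not stated, and was used only to rank peaks. The aligner, the peak caller and the threshold were not stated in the labels or notes, and read depth is unknown. The most common width of an optimal peak is 370 bp, so summits are not resolved to single bases.

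Only the ce11 lists were used, with Ensembl release 115 genes and the WBcel235 genome, and positions are counted from 1. The ce10 lists were not used here. Distances, bins of 100 bp, intervals and motif counts were computed with Python 3.11.15, pandas 2.3.3 and scipy 1.17.1, and the counting was tested on simulated data. No test was run: 1 group of 2 replicates has no second condition, and shares carry exact binomial 95% intervals. A summit was credited to each isolated end within 1000 bp. A noncoding gene was called near when within 200 bp of the summit, and piRNA genes were left out of that count. Region 31-mers were counted on both strands over the genome.

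The named genes are those of the 25 highest optimal summits, ends with several summits, the 4 highest on X, the 4 highest with over 5000 bp free, the 4 highest seen in 1 replicate only, and list members with a summit, up to 4 a list. The members, lists and bins were chosen with earlier results of these data known.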

Additional observations from a re-analysis of the deposited data

How the results depend on the processing

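The share at 100 to 500 bp stayed within its interval in 12 of 12 alternatives. The ratio of summits past to before the end did so in 13 of 13. It ran from 1.69 over genes of all lengths to 4 with each summit credited to its nearest 3' end. Longer lists, not among these alternatives, gave lower values. The share was 65.4% in the upper 5000 pooled peaks and 52.7% in all 30000, below the interval's limit of 66.5%. The ratio was 2.29 and 1.21 there, and 1.27 and 1.13 in all 30000 peaks of replicates 1 and 2. In all pooled peaks 54.7% of the summits in the ratio lay past the end, below the interval's limit of 62.6%. In genes shorter than 1000 bp alone the order was the opposite in the optimal list, with 6 summits past the end and 16 inside. In all 30000 pooled peaks it was not, with 130 past the end and 96 inside. With each replicate's own upper peaks, the summits numbered 50 and 54, the ends 50 and 50, the share was 74% and 75.9%, the median distance 310 and 299.5 bp and the ratio 1.86 and 3.2. The numbers of summits and of ends changed with the list or the set of ends, as fewer or more were counted. They were 26 and 24 in the upper 50% of the optimal list, 135 and 122 in the upper 2000 pooled peaks, and 29 and 27 with 3000 bp free. They were 30 and 28 with no gene of any biotype except piRNA in the 1500 bp, and 35 and 33 where all protein-coding transcripts end within 50 bp. Without summits near noncoding genes, a setting chosen after seeing the data, they were 34 and 32. The median distance moved by more than the 7.42 bp SD between replicates to 319 bp in the upper 2000 peaks and to 318 bp where transcripts share an end. It was 259.5 bp both without summits near noncoding genes and with no other gene of any biotype except piRNA in the 1500 bp. No paired analysis was possible because there is a single group. The ratio of 1.69 was also a setting chosen after seeing the data. The lists carry no read counts, so a faint summit cannot be told from background by depth.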
